A study of Oncorhynchus tshawytscha with 15 samples.

Results

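The near-lethal end of an acute temperature series in juvenile Chinook salmon (Oncorhynchus tshawytscha) was examined by asking where the sequencing reads of the gill went: which transcribed sequences took up a larger part of each library at 25° than in the 12° control group, and which gave up the corresponding part. The members are the contigs, de novo assembled stretches of transcript, counted with 10 or more reads in 3 or more of the 6 libraries made at 25° and 12°. There were 142615 of them among the 183740 contigs of the table. The 41125 contigs that did not reach this minimum held 0.178% to 0.309% of the reads of a library.

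The fish were fall-run fry 5 months after hatching, from the Merced River Hatchery in California, reared at 12°. The 25° group was moved for 3 hr into a water bath at 25° and then recovered for 1 hr at 12°, whereas the 12° control group was handled in the same way and stayed at 12°. Each group had 3 libraries, and each library was a pool of gill arch RNA from 11 fish, so that 33 fish stood behind each temperature. Groups at 15°, 18°, and 21° with the same exposure, recovery, and pooling are given for scale. The 15° group also served to define 1 set of abundance classes. The study's account states that 12 of the 33 fish at 25° stopped responding or died and were sampled promptly. The 25° pools thus mix fish with the full exposure and recovery and fish without it. A pool shows no variation between fish, and its RNA does not tell apart fewer cells of a type from less RNA per cell. Libraries at 25° held 60589065, 64615993, and 62664001 reads, and those at 12° held 82348290, 86230206, and 77838763 reads. At these depths 3 reads over a whole group stand for 0.0160 CPM at 25° and 0.0122 CPM at 12°, where CPM is a contig's reads scaled to a library of 1000000 reads; these limits cover counting error only.

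The gill of a fish is the surface for gas exchange and ion regulation and is directly exposed to the water. Acute heat shock in animal cells is known for a rapid, strong induction of a small set of stress genes, above all those for chaperones, the proteins that hold and refold damaged proteins. It is also known for a broad reduction of the transcription of many other genes. In the table used here a contig is known by its number alone, so none is assigned to either response, and the gill label was not checked against marker genes. In the table, 1859 contig numbers belong to 2 contigs each, and none of these is named here.

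The libraries of the 25° and the 12° group differed in their whole composition. For a pair of libraries, the percent of reads that would have to change contig to turn one library into the other was taken as 50% of the summed absolute differences of read share, the percent of a library's reads on a contig. This was 28.4% on average over the 9 pairs of a 25° and a 12° library (25.0% to 32.4%), against 8.56% to 10.4% among the 25° libraries and 7.20% to 10.9% among the 12° libraries. The mean between groups exceeded the mean within groups by 19.2 percentage points (one-sided exact permutation test, n = 3 each, p = 0.1, the smallest this measure can reach in this design). The 25° libraries did not move equally: replicate 1 lay 30.8%, replicate 2 lay 28.8%, and replicate 3 lay 25.5% from the 12° libraries on average. Against the same controls, the mean between groups was 7.62% at 15°, 8.25% at 18°, and 11.1% at 21°, so that the values at 15° and 18° lay within the range found among the 12° libraries themselves.

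Between the group means, 26.8% of the reads changed place. The gain was spread over 57427 contigs of the table and the loss over 126306. The gain was concentrated in fewer contigs than the loss. Read shares are parts of a fixed whole, so contigs that do not gain must together give up what the others gained. A loss spread over many contigs thus follows in part from the measure, and the counts below are a description only. A set of 11 contigs carried 25% of the gain and 149 carried 50%, whereas it took 831 contigs to reach 25% of the loss and 4742 to reach 50%. To reach 90%, 5811 contigs were needed for the gain and 31836 for the loss. The 10 largest gains summed to 6.68 percentage points of all reads and the 10 largest losses to 0.707 points. When each library was left out in turn, the number of contigs carrying 50% of the gain was 133 to 183, and that carrying 50% of the loss was 4418 to 5038.

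**Figure D1:**
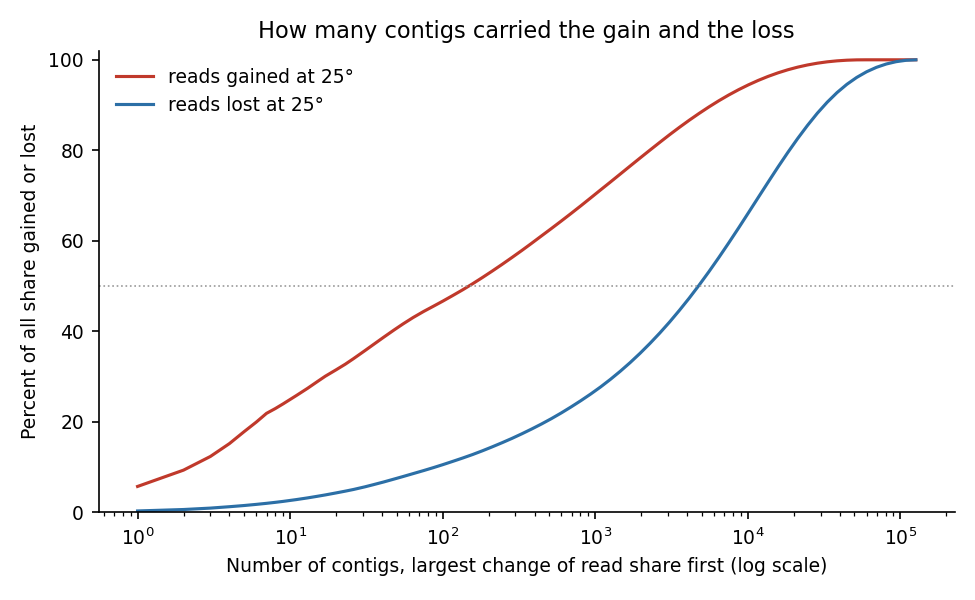
Cumulative percent of all read share gained (red) and lost (blue) at 25° relative to the 12° control group, against the number of contigs on a log scale, with the largest change of read share first. The gain reached 50% (dotted line) at 149 contigs and the loss at 4742.

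The size of the change and the number of reads behind it were related very differently for gains and losses. Contigs were classed by the ratio of mean read share, 25° over 12°, with a group of fewer than 3 reads set to 3. These classes are made from the values they describe and have no test. The 905 contigs more than 16-fold higher held 11.7%, 11.7%, and 8.78% of the reads in the 25° libraries, against 0.157%, 0.155%, and 0.144% in the 12° libraries. This smallest of the higher classes gained the most, 10.6 percentage points. The 5800 contigs 4- to 16-fold higher gained 7.45 points (8.60% ± 0.822 at 25° and 1.15% ± 0.0395 at 12°, SD, n = 3), and the 12267 contigs 2- to 4-fold higher gained 4.60 points (7.34% ± 0.330 at 25° and 2.74% ± 0.0452 at 12°, SD, n = 3). Together, 18972 contigs more than 2-fold higher took 26.7% of the reads at 25° and 4.05% at 12°.

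The losses ran the other way. The 646 contigs more than 16-fold lower changed by only −0.0603 points, since they held 0.00252% of reads at 25° and 0.0628% at 12°. The 13934 contigs 4- to 16-fold lower lost 1.52 points (0.346% at 25° and 1.87% at 12°), and the 36249 contigs 2- to 4-fold lower lost 8.85 points (6.001% at 25° and 14.9% at 12°). The largest single loss, 12.2 points, came from the 113939 contigs whose share changed by less than 2-fold (67.0% ± 2.36 at 25° and 79.2% ± 0.685 at 12°, SD, n = 3). Classed by fold change after TMM scaling, the contigs more than 16-fold, 4- to 16-fold, and 2- to 4-fold lower changed by −0.0341, −0.773, and −4.59 points, and those within 2-fold by −18.7 points, so that more of the loss lay in the class within 2-fold. The number of contigs more than 16-fold lower depended on single libraries. It ranged from 413 without 25° replicate 2 to 900 without 12° replicate 1.

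**Figure D2:**
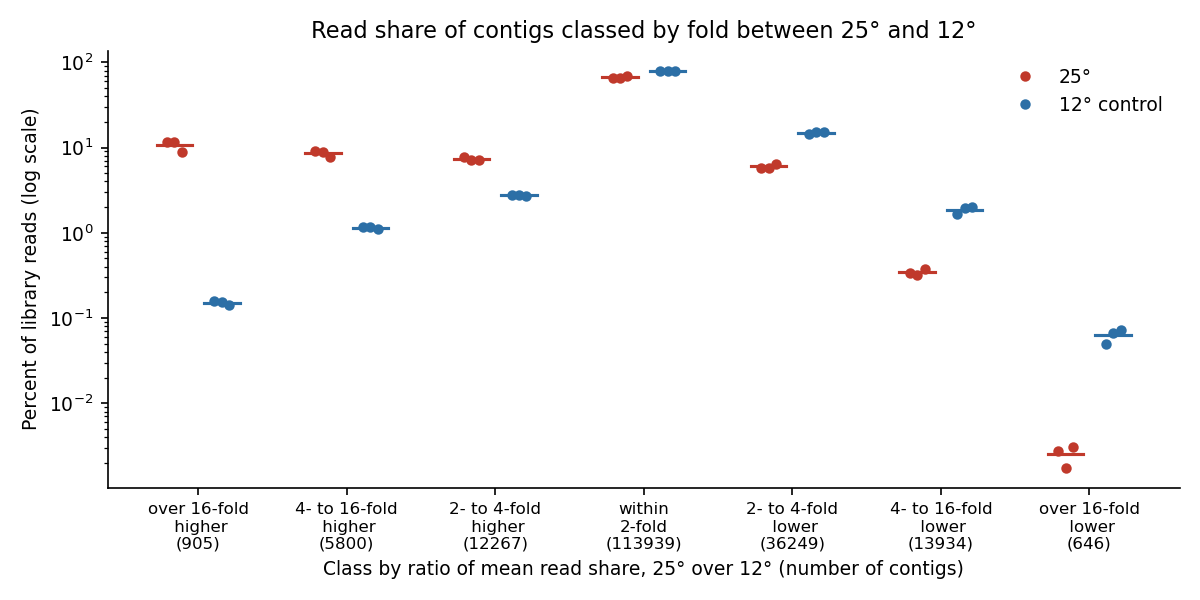
Percent of library reads (log scale) on contigs classed by the ratio of mean read share, 25° over 12°, with the number of contigs in each class. Points are the 3 libraries at 25° (red, left) and at 12° (blue, right), and bars are their means. The class more than 16-fold higher held 8.78% to 11.7% at 25° and 0.144% to 0.157% at 12°, and the class within 2-fold held a mean of 67.0% at 25° and 79.2% at 12°.

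A read share is a part of a fixed whole, so that a gain by some contigs lowers the share of all others. The 164768 contigs that were not more than 2-fold higher held 73.3% of reads at 25° and 96.0% at 12°, a ratio of 0.764, or −0.39 on the log2 scale. The median log2 ratio of read share over the tested contigs was −0.41. After TMM scaling, which sets the bulk of the contigs level, the median log2 fold change was −0.06. A contig whose log2 ratio of read share was above −0.41 thus lost less than the median contig or gained share. In either case read shares do not tell whether the amount of its RNA per cell changed.

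With TMM scaling, 22937 contigs, or 16.1% of those tested, differed between 25° and 12° by edgeR's quasi-likelihood test at a Benjamini-Hochberg adjusted p below 0.01 and a fold change above 2. Of these, 13308 (9.33%) were upregulated and 9629 (6.75%) were downregulated. Scaled to library totals instead, 9261 were upregulated and 19416 downregulated, so that the upregulated part of the calls was 32.3% in place of 58.0%. The count of downregulated contigs was 5169 without 12° replicate 2, 6315 without 12° replicate 3, and 6415 without 25° replicate 1. With the replicate number as a block, 8799 were upregulated and 4316 downregulated. The study ran its replicates on different days, and whether a replicate number marks the same day in both groups is not given in the labels. The upregulated contigs held 29.6% ± 2.69 of reads at 25° and 5.77% ± 0.142 at 12° (SD, n = 3), and the downregulated contigs held 1.93% ± 0.177 at 25° and 6.55% ± 0.201 at 12° (SD, n = 3). The 119678 contigs that were tested and not called held 68.3% ± 2.54 of reads at 25°, against 87.4% ± 0.244 at 12° (SD, n = 3). As parts of a fixed whole, all contigs not upregulated had to lose the 23.8 points that the upregulated contigs gained. The calls use TMM scaling, which sets the bulk of the contigs level, whereas shares are unscaled. How this loss divides between uncalled and downregulated contigs is thus a description only.

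At the lower temperatures the summed share of these contigs lay between its values at 12° and 25°, or at the 12° level. The upregulated contigs held 5.77% of reads at 12°, 6.02% at 15°, 6.93% at 18°, and 9.29% at 21°, and the downregulated contigs held 6.55% at 12°, 6.37% at 15°, 5.86% at 18°, and 5.22% at 21°. The class more than 16-fold higher at 25° held 0.152% at 12°, 0.163% at 15°, 0.318% at 18°, and 1.08% at 21°. All of these values share the same 12° libraries, from which the contigs were in part chosen.

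The contigs at the head of the libraries changed. Of the 10 contigs with the most reads at 12°, 3 were still among the 10 at 25°, and the same held for 52 of 100, 626 of 1000, and 7365 of 10000. At 15°, 97 of the 100 were shared with 12°, and at 21°, 93 of 100. Of the 48 contigs that entered the first 100 at 25°, 47 were more than 2-fold higher and 31 more than 16-fold higher, and 22 had ranked below 10000 at 12°. Over the whole table, 18972 of 183740 contigs were more than 2-fold higher and 905 more than 16-fold higher. Entry was judged from the same means as the fold, so the folds of these 48 are a description only. The 48 that left had moved little: their median rank at 25° was 149.5 and their lowest rank was 317. The 100 contigs with the most reads at 12° together held 11.0% of reads at 25° and 11.7% at 12°. Of these 100, 87 had a lower share at 25°, as did 97505 of the 142615 tested contigs. The median log2 ratio of read share was −0.34 in the 100, against −0.41 over all tested contigs. The net change of the 100, −0.67 points, includes a gain of 1.54 points by contig_70413 alone. The others together thus lost more than the net change.

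The libraries accordingly became more concentrated at 25°. The number of contigs that held 50% of a library's reads was 3366, 3043, and 3684 at 25°, against 5262, 6052, and 5981 at 12°, and the groups did not overlap (exact permutation test, two-sided, p = 0.1, the smallest possible with n = 3 each). The 100 contigs with the most reads in each library held 18.9%, 19.8%, and 17.2% at 25°, against 12.3%, 11.1%, and 11.8% at 12° (exact p = 0.1). The first 10000 held 67.4% ± 0.919 at 25° and 60.6% ± 1.36 at 12° (SD, n = 3, exact p = 0.1). Without the 10 contigs that gained most, the difference for the first 100 was 1.63 points in place of 6.89, and that for the contigs holding 50% of reads was −1519 contigs in place of −2401.

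The 10 contigs with the largest gain were all upregulated, and the lowest value of any of them in a 25° library was 2090 CPM. They held 6.84% ± 1.24 of reads at 25° and 0.157% ± 0.00500 at 12° (SD, n = 3). The background for such calls is 9.33% of the tested contigs, but these contigs were chosen by the same contrast and their calls are a description only. Contigs are compared here by reads, not per length, so that the order says how many reads a contig took and not how many transcripts it stands for.

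The largest gain, 1.54 points, was that of contig_70413 (955 bp), which was also abundant at 12°. It had 17230, 18783, and 14142 CPM in the 25° libraries, against 1354, 1372, and 1305 in the 12° libraries. It ranked 1 at 25° and 22 at 12°, and its log2 fold change was 3.99 ± 0.19 (SE, adjusted p = 9.17e-07, edgeR, Benjamini-Hochberg adjustment). It alone took 5.74% of all the share gained.

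The other 9 were scarce or moderate at 12°. The contig with the second largest gain, contig_12135 (494 bp), had 10886, 11467, and 6631 CPM in the 25° libraries, against 2.81, 8.002, and 6.24 in the 12° libraries. It ranked 3 at 25° and 33111 at 12°, with a log2 fold change of 11.10 ± 0.52 (SE, adjusted p = 8.78e-07, edgeR with Benjamini-Hochberg adjustment). The short contig_74187 (259 bp) had 5962, 5987, and 3544 CPM at 25°, against 0.267, 4.23, and 2.20 at 12°, a log2 fold change of 11.54 ± 0.93. This was the largest rise among contigs with a mean of at least 1000 CPM over the 6 libraries, and its 12° values spread more than 10-fold. Within each 25° library contig_12135 had 1.83 to 1.92 times the reads of contig_74187.

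The long contig_14547 (3100 bp) had 6644, 6471, and 3758 CPM at 25°, against 2.85, 9.08, and 7.68 at 12°. In all 10 contigs the lowest 25° value was that of replicate 3, and in 7 of the 10, these 3 included, the lowest 12° value was that of replicate 1. Whether several of the contigs are pieces of one transcript or copies of one gene was not analysed here.

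A second set of gains differed on the log scale in its course over the lower temperatures, although in CPM all 10 contigs gained most between 21° and 25°. Mean CPM of contig_21086 (415 bp) were 7.94 at 12°, 7.51 at 15°, 40.8 at 18°, 418 at 21°, and 8091 at 25°. Those of contig_67625 (276 bp) were 5.92 at 12°, 5.54 at 15°, 35.7 at 18°, 408 at 21°, and 7630 at 25°, and the 2 contigs had nearly equal reads in each 25° library, with a ratio of 0.949 to 1.14. In both, every 18° library lay above every 12° library. Neither was called at 18° against 12° (adjusted p = 0.0154 for each, edgeR with Benjamini-Hochberg adjustment). How many of all contigs showed such a separation at 18° was not counted.

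Within this set, contig_3643 (3206 bp) had 7625, 7435, and 6616 CPM at 25°, against 116, 122, and 111 at 12°, a log2 fold change of 6.31 ± 0.18. Its mean was 124 at 15°, 282 at 18°, and 1370 at 21°. The contigs contig_68392 (1253 bp) and contig_2028 (1570 bp) had a mean of 2866 and 2807 CPM at 25°, against 8.45 and 32.8 at 12°, with 53.3 and 80.02 at 18°. Unlike contig_21086 and contig_67625, contig_3643, contig_68392, and contig_2028 were called upregulated at 18° against 12°. Their adjusted p was 0.00187, 0.000156, and 0.00758 (edgeR with Benjamini-Hochberg adjustment). Of 145790 contigs tested at 18°, 42 were called upregulated. The named contigs were chosen by the contrast of 25° with the same 12° libraries, so these calls are a description only. By contrast, the mean of contig_12135 was 5.68 at 12°, 4.87 at 18°, and 41.9 at 21°, and that of contig_14547 was 6.54 at 12°, 5.80 at 18°, and 24.9 at 21°, so that on the log scale too their rise lay mostly between 21° and 25°. The shortest of the 10, contig_1143008 (170 bp), had 2639, 3099, and 2090 CPM at 25°, against 37.2, 44.2, and 40.9 at 12°, and a mean of 51.4 at 18° and 166 at 21°.

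**Figure D3:**
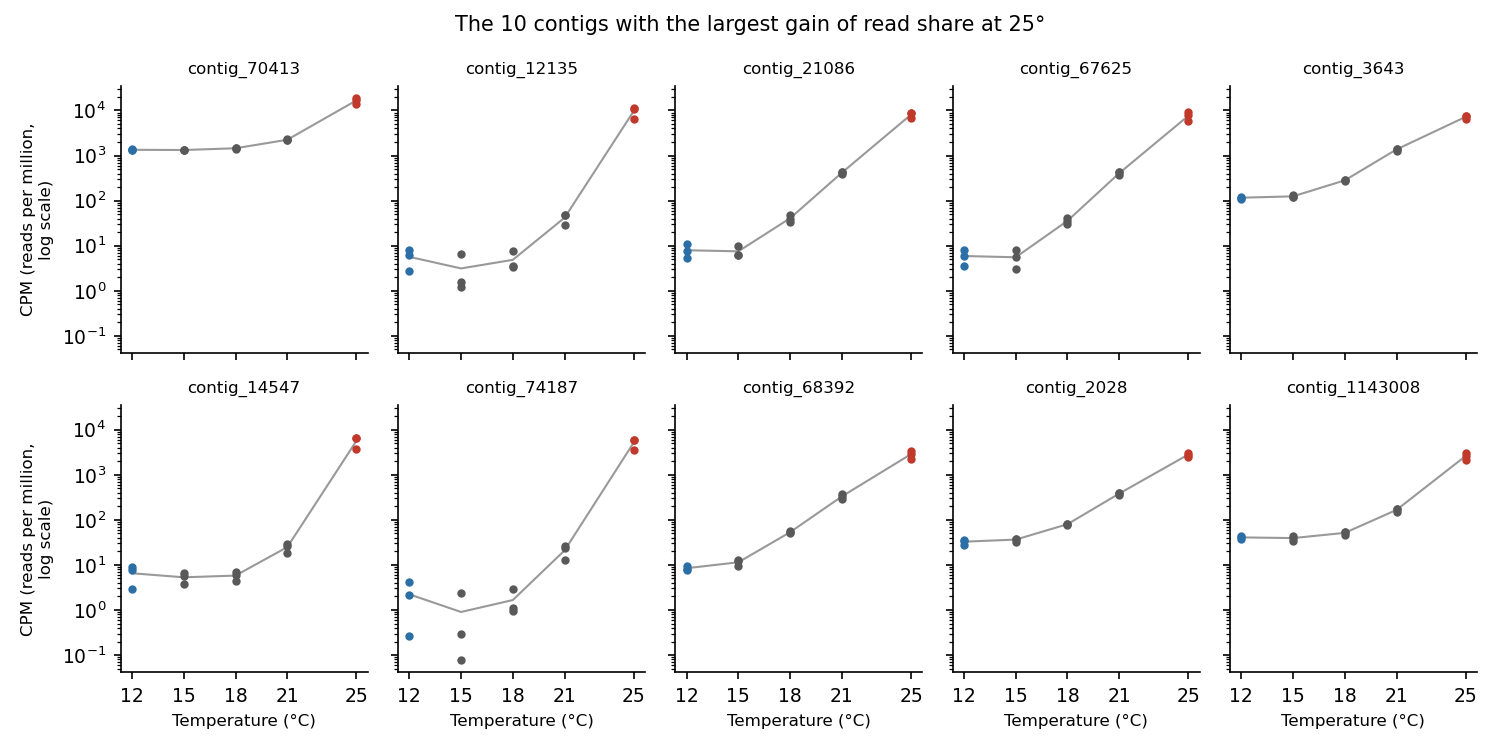
CPM (log scale) of the 10 contigs with the largest gain of read share at 25°, against exposure temperature. Points are single libraries at 12° (blue), 15°, 18°, and 21° (grey), and 25° (red), and lines join the means. The mean of contig_21086 was 40.8 at 18° and 418 at 21°, whereas that of contig_14547 was 5.80 at 18° and 24.9 at 21°.

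The 10 contigs with the largest loss were abundant contigs with small fold changes. They were chosen by absolute loss of read share, which favours abundant contigs, so that this trait is a description only. They held 1.59% ± 0.156 of reads at 25° and 2.30% ± 0.226 at 12° (SD, n = 3). In each of them the 3 libraries at 25° lay below all 3 at 12°, as they did in 57041 of the 142615 tested contigs, while 1 of the 10 was called downregulated against a background of 6.75%. Of the 10, 8 kept their read share within 2-fold.

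The largest loss, 0.0872 points, was that of contig_24715 (1480 bp), the only one called with TMM scaling; its log2 fold change was −1.04, and −0.89 to −1.14 when each library was left out, so that the call was lost without 25° replicate 1 or 3 and without 12° replicate 1 or 2. It had 512, 595, and 511 CPM at 25°, against 1510, 1476, and 1248 at 12°, with a mean of 1027 at 21°. Its log2 fold change was −1.04 ± 0.15 (SE, adjusted p = 0.000669, edgeR with Benjamini-Hochberg adjustment), close to the threshold of 1, and it was no longer past that threshold in 4 of the 6 fits that left out a library (−0.89 without 12° replicate 1). It ranked 118 at 25° and 20 at 12°.

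The second largest loss, 0.0853 points, was that of contig_61658 (1739 bp), which had 4882, 6067, and 5612 CPM at 25°, against 6782, 6205, and 6133 at 12°. Its share at 25° was 0.866 of that at 12°, and its log2 fold change with library totals was −0.21. After TMM scaling its log2 fold change was 0.14 ± 0.16 (adjusted p = 0.514, edgeR with Benjamini-Hochberg adjustment), since this scaling moved the value by more than its own loss. Likewise contig_29829 (2917 bp) changed by −0.0827 points with a fitted log2 fold change of −0.03 ± 0.15. The direction of contig_61658 thus turned with the scaling; the log2 fold change of contig_29829 was 0.0036 with DESeq2 size factors, −0.38 with library totals, and −0.11 to 0.11 when each library was left out.

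Further down, contig_21906 (1095 bp) had 743, 703, and 978 CPM at 25°, against 2014, 1511, and 1404 at 12°, and its log2 fold change of −0.68 ± 0.19 missed the thresholds (adjusted p = 0.0190, edgeR with Benjamini-Hochberg adjustment; adjusted p = 0.00195 to 0.0738 over the alternatives). It passed both with library totals (log2 fold change −1.03, adjusted p = 0.00195). The remaining 6, contig_70819, contig_23801, contig_70106, contig_70313, contig_46063, and contig_23963, had fitted log2 fold changes of −0.60 to −0.15 and share changes of −0.0707 to −0.0538 points. Of these, contig_70313 and contig_46063 had nearly the same CPM in each library (1128 and 1178 in 25° replicate 1, 2394 and 2449 in 12° replicate 1), and whether they share a source was not analysed here.

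**Figure D4:**
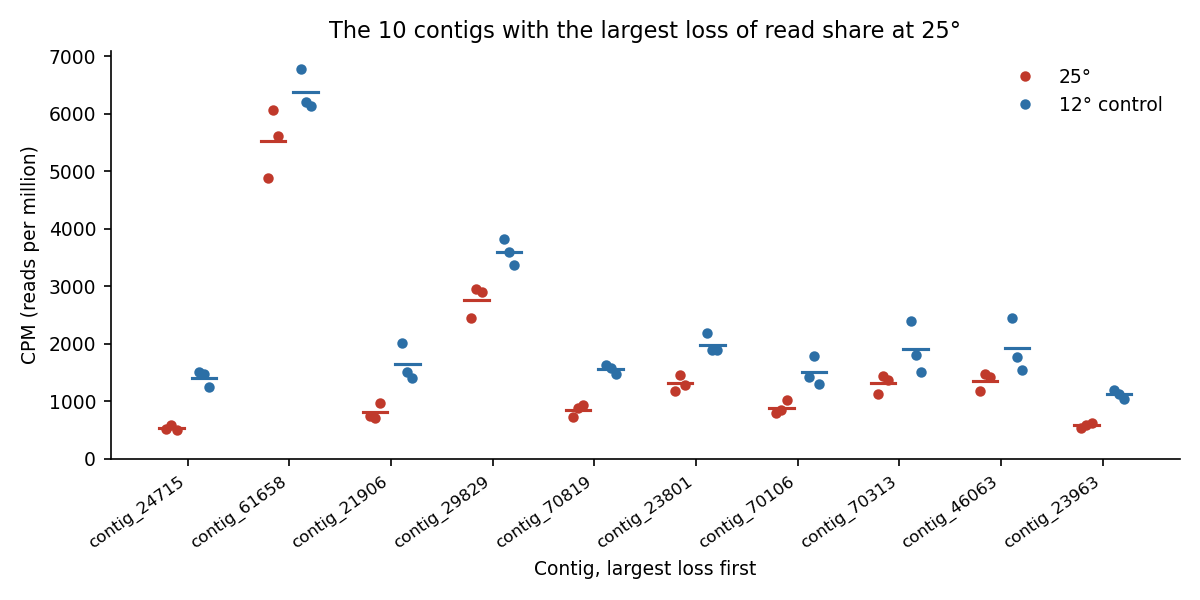
CPM of the 10 contigs with the largest loss of read share at 25°, in the 3 libraries at 25° (red, left) and at 12° (blue, right), with bars at the means. In all 10 the 25° libraries lay below the 12° libraries, from 511 to 595 against 1248 to 1510 in contig_24715, the first, to 4882 to 6067 against 6133 to 6782 in contig_61658.

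Which abundance classes gained depended on how abundance was defined. By the mean CPM over the 6 libraries compared, the 42 contigs of at least 1000 held 13.5%, 14.4%, and 12.2% of reads at 25°, against 6.65%, 5.95%, and 6.59% at 12°. The 795 contigs of 100 to 1000 held 20.4% ± 0.302 at 25° and 18.4% ± 0.889 at 12° (SD, n = 3). The classes below held less at 25°: 45.7% at 25° and 49.7% at 12° for 10 to 100, 17.9% at 25° and 22.0% at 12° for 1 to 10, and 2.64% at 25° and 3.44% at 12° for under 1. In each class the groups did not overlap (exact permutation test, two-sided, p = 0.1 and 0.1 after Benjamini-Hochberg adjustment over the 5 classes, the smallest possible).

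This mean also counts a contig as abundant when it was abundant at 25° alone. Classed by the mean of the 3 libraries at 15°, which enter neither group and for which edgeR made 0 calls against 12° (0 also at an adjusted p below 0.10), the direction turned for 3 classes. The 15° libraries thus stand for a level close to the control group. Classes made from them place a contig that rose at 25° low and a contig that fell at 25° high. Gains in low classes and losses in high classes therefore follow in part from this definition, as with classes from the 12° libraries. The 106216 contigs with a mean under 1 at 15° held 4.24% ± 0.579 at 25° and 3.08% ± 0.282 at 12° (SD, n = 3), and the 55869 contigs of 1 to 10 held 24.8% ± 1.16 at 25° and 20.1% ± 0.784 at 12° (SD, n = 3). The 786 contigs of 100 to 1000 held 16.9% ± 0.549 at 25° and 18.9% ± 0.762 at 12° (SD, n = 3). For these 3 classes the groups did not overlap (exact permutation test, two-sided, p = 0.1).

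The 20837 contigs of 10 to 100 lost under both definitions, with 46.7% at 25° and 51.2% at 12° by the 15° classes. The 32 contigs of at least 1000 at 15° held 7.32% ± 0.312 at 25° and 6.77% ± 0.339 at 12° (SD, n = 3), and the groups overlapped (exact p = 0.2). In that class contig_70413 gained 1.54 points and was the only contig called upregulated, and contig_24715 the only one called downregulated. Pooled, the 162085 contigs under 10 CPM at 15° held 29.1% ± 1.73 of reads at 25° and 23.2% ± 1.06 at 12° (SD, n = 3).

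The 15° level was close to that of the control group, so a contig more than 16-fold above that group could hardly be abundant at 15°. The split of this fold class by 15° level thus follows largely from how the class was made, and is a description only. The gain of the contigs more than 16-fold higher lay mainly in contigs that were scarce at 15°. Of their 10.6 points, 6.01 came from 183 contigs of 1 to 10 CPM at 15°, 1.20 from 685 contigs under 1, 2.68 from 36 contigs of 10 to 100, and 0.711 from 1 contig of 100 to 1000. Over all called contigs, the percent upregulated was 10.02% of the tested contigs with a level under 1 at 15°, 9.54% at 1 to 10, 6.81% at 10 to 100, and 4.07% at 100 to 1000. The percent downregulated was 3.85%, 9.72%, 8.01%, and 2.80% in the same order. Of the 106216 contigs under 1 CPM at 15°, 65094 were tested. Such a contig could reach the minimum number of reads through the 25° libraries alone, which favours rises over falls among those tested. The percents of the lowest class are thus set in part by the minimum. By the mean over the 6 libraries compared, the percent upregulated instead ran from 6.20% under 1 to 35.7% at 1000 or more.

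**Figure D5:**
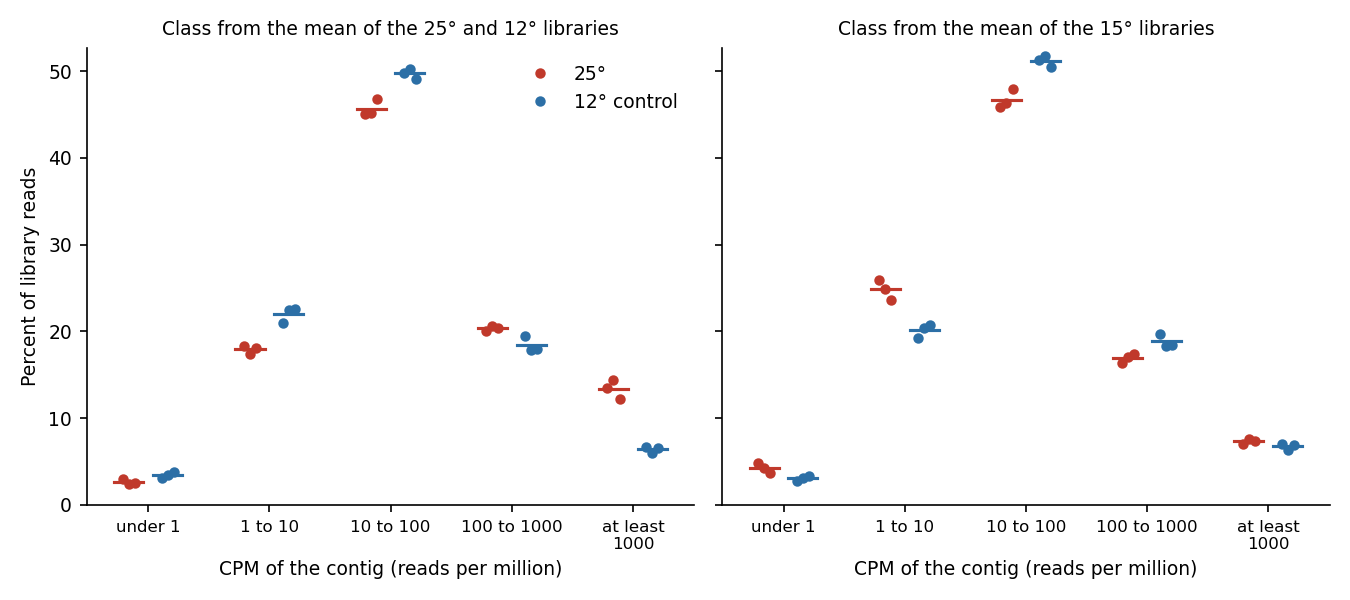
Percent of library reads on contigs classed by their CPM, from the mean of the 6 libraries compared (left panel) and from the mean of the 15° libraries (right panel), in the 3 libraries at 25° (red, left) and at 12° (blue, right) with bars at the means. Contigs of at least 1000 held a mean of 13.3% at 25° and 6.40% at 12° in the left panel, and those of 1 to 10 held 24.8% at 25° and 20.1% at 12° in the right panel.

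Shorter contigs held a larger part of the reads at 25°. Contigs under 300 bp held 14.4% ± 0.479 of reads at 25° and 12.7% ± 0.532 at 12°, and those of 300 to under 1000 bp held 32.9% ± 0.447 at 25° and 30.0% ± 0.547 at 12° (SD, n = 3). Contigs of 1000 to under 3000 bp held 39.5% ± 0.646 at 25° and 43.2% ± 0.323 at 12° (SD, n = 3). For these classes the groups did not overlap (exact permutation test, two-sided, p = 0.1, adjusted over the 4 classes to 0.133), whereas contigs of at least 3000 bp, with 13.2% at 25° and 14.0% at 12°, overlapped (exact p = 0.3). Without the 10 largest gains, of which 6 are contigs under 1000 bp, the differences kept their direction at 1.04, 1.66, −1.47, and −1.22 points from the shortest to the longest class.

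By the mean over the 6 libraries compared, 67090 of the 142615 tested contigs had under 1 CPM. The same held for 536 of the 589 tested contigs more than 16-fold lower and for 253 of the 880 more than 16-fold higher. Contigs more than 16-fold higher were found in every class, with 11 among the 42 contigs of at least 1000 CPM. A large rise by itself raises this mean, so the split is a description only. Of the tested contigs, 149 had no read in any 25° library and 2 had none in any 12° library. These contigs could be tested only through 10 or more reads in every library of the other group, and the 25° libraries were the shallower ones, so that the counts are a description. The first set includes contig_560469 (487 bp), which had 0 reads in all 3 libraries at 25° and 111, 154, and 198 at 12°, at least 118.5-fold lower with the floor of 3 reads over the group, and the second includes contig_49772 (774 bp), with 51, 20, and 31 reads at 25° and 0 in all 3 at 12°, at least 45.1-fold higher. Each of them stood for under 3 CPM in every library.

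Among contigs of 1 to 10 CPM, contig_1450095 (414 bp) showed the largest rise, with 1570, 1194, and 620 reads at 25° and 2, 0, and 1 at 12°, a ratio of 1479.5 after division by the reads sequenced (95% exact counting interval 506 to 7178). This interval leaves out the spread between the 25° pools (25.9, 18.5, and 9.89 CPM). The contig met the minimum of reads through the 25° libraries alone, so its rise is a description only. In the same class contig_1411876 (457 bp) showed the largest fall, with 10, 0, and 2 reads at 25° and 428, 416, and 500 at 12°. Without the 12° libraries contig_1411876 would not have met the minimum, so its fall is likewise a description. Its means were 5.48 CPM at 12°, 4.78 at 15°, 2.47 at 18°, and 1.71 at 21°. Its 15° libraries (4.36, 5.76, and 4.23 CPM) overlapped those at 12° (5.20, 4.82, and 6.42 CPM). The largest fall among contigs of 10 to 100 was that of contig_1374773 (1449 bp), with 1.22, 1.70, and 1.45 CPM at 25°, against 26.8, 29.8, and 24.1 at 12°. Its means were 20.6 at 15°, 13.3 at 18°, and 7.52 at 21°. Its log2 fold change at 25° was −3.85 ± 0.18 (SE, adjusted p = 9.82e-07, edgeR with Benjamini-Hochberg adjustment).

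On total reads, the largest rises among contigs of 10 to 100 and of 100 to 1000 CPM were those of contig_78846 and contig_41831. Only 0.833% and 8.59% of their reads were unique to them, so that most also matched other contigs and their levels are uncertain. With 0, 12, and 5 reads at 12°, contig_78846 also met the minimum of reads only with the 25° libraries. The contig_41831 (964 bp) had 321, 354, and 267 CPM at 25°, against 0.376, 0.522, and 0.206 at 12°. Its log2 fold change was 7.08 on unique reads and 10.07 on total reads, and that of contig_78846 was 6.72 on unique reads and 11.67 on total reads. The largest fall among contigs of 100 to 1000 was that of contig_27575 (6596 bp), with 74.2, 66.4, and 63.2 CPM at 25°, against 201, 251, and 248 at 12°, a log2 fold change of −1.43 ± 0.13 (SE, adjusted p = 4.64e-05, edgeR with Benjamini-Hochberg adjustment). With TMM scaling no contig with a mean of at least 1000 CPM over the 6 libraries was called downregulated; with library totals contig_21906 of that class was, and by the 15° classes contig_24715 belongs to those of at least 1000 CPM.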

How the data were processed

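RNA from 15 pools of gill tissue was sequenced, and the libraries at 25° and 12° were compared; groups and replicate numbers came from the labels. Per the study's methods, the authors trimmed reads (Cutadapt 1.1, Phred 20), assembled pooled, de-duplicated reads into contigs of at least 100 bp (CLC Genome Workbench 4.9 beta), and aligned each library to them (version 5.0); how reads with several matches were placed is not given in the sources used here. The deposited read counts are whole, not normalized, and given as total and unique reads. The 6 libraries compared held 60589065 to 86230206 reads each, and intervals and floors cover counting error only. Of the 98 columns, 66 were not used, among them RPKM, repeated lengths, group means, and the authors' own test of each temperature against 12°.

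Contigs were tested with edgeR 4.0.16 (R 4.3.3; TMM, glmQLFit, glmQLFTest, Benjamini-Hochberg). A standard error was obtained as log2 fold change over the root of F. Read shares, exact permutation tests over libraries, and figures used Python 3.11.15, numpy 2.4.6, pandas 2.3.3, scipy 1.17.1, and matplotlib 3.10.9. Scripts were tested on simulated data. Named contigs are the 10 largest gains and 10 largest losses of read share and, in each abundance class, the called contig with the largest rise and fall without overlap of groups. The members, classes, and rule for names were chosen with earlier results of these data known. Each library is a pool of its own fish, so p-values measure the spread between pools, not between fish. Alternatives were DESeq2 1.42.0, other scalings, filters and thresholds, unique reads, reads per base (TPM), all 15 libraries in 1 fit, a replicate block, and leaving out each library.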

Additional observations from a re-analysis of the deposited data

How the results depend on the processing

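Upregulated and downregulated contigs numbered 8799 and 4316 with the replicate number as a block. The main test did not take the numbers as pairs. Over 75525 contigs, r of deviations from the group means was −0.67, −0.25, and −0.28 for same-numbered libraries. For libraries of different number it ran from −0.46 to 0.58. Deviations of 3 libraries from their own mean sum to 0, so these values cannot show whether the numbers mark pairs. Scaling to library totals gave 19416 downregulated contigs and an adjusted p below 0.10 gave 18942. Leaving out each library gave 10401 to 13544 upregulated and 5169 to 8059 downregulated contigs; the other alternatives kept both counts within 1.5 times.

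Values in this paragraph are differences, 25° minus 12°. The excess of reads moved between groups was 15.9 points without the 10 largest gains. Without them the shares of the first 10, 100, 1000, and 10000 contigs differed by 0.0756, 1.63, 4.14, and 4.46 points, and contigs holding 50% of reads by −1519. With TPM the first 10 and 100 differed by 5.87 and 9.77 points, and contigs holding 50% by −1447. Abundance classes from the lowest to the highest differed by 1.16, 4.72, −4.48, −1.95, and 0.550 points when defined at 15°, by 0.707, 5.85, −5.12, −1.90, and 0.460 when defined at 12°, and by −0.604, −2.79, −0.784, 3.45, and 0.735 without the 10 largest gains. Without these, length classes from the shortest differed by 1.04, 1.66, −1.47, and −1.22 points. With TMM fold changes the fold classes from more than 16-fold lower to more than 16-fold higher changed by −0.0341, −0.773, −4.59, −18.7, 4.60, 8.05, and 11.5 points.

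Leaving out each library, the abundance classes of 1 to 10, 100 to 1000, and at least 1000 differed by −5.09 to −3.31, 2.13 to 2.88, and 5.25 to 7.37 points. Abundance and fold classes were made anew from the libraries kept, so their contigs differed each time. The values of the 100 to 1000 class all lay above the 1.98 points found with all 6 libraries. The fold classes more than 16-fold lower, 4- to 16-fold lower, 2- to 4-fold lower, and more than 16-fold higher changed by −0.0911 to −0.0457, −1.87 to −1.44, −9.85 to −8.43, and 9.998 to 11.95 points.

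Among the named contigs, directions that turned were not called in any fit: contig_61658 had a log2 fold change of −0.21 with library totals, contig_29829 of 0.0036 with DESeq2 size factors and −0.11 to 0.11 when each library was left out, and contig_70313 and contig_46063 ranged from −0.31 to 0.11 and from −0.27 to 0.16 when each library was left out. The called upregulated contigs stayed called with DESeq2 size factors, library totals, the block, unique reads, and each library left out, and contig_21906 was called with library totals (−1.03); named contigs were not followed under the other alternatives. Depth limits the lowest abundance class, where a group can hold fewer than 3 reads.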
